A study of Mus musculus with 6 samples.

Results

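The genes described here are 44 genes of fatty acid and triglyceride metabolism, taken from the table by symbol and not by their values, out of 54532 rows. They comprise 4 genes of fatty acid synthesis, 3 elongases, 4 desaturases, 3 acyl-CoA synthetases, 6 enzymes of triglyceride synthesis, 4 lipid droplet coats, 5 genes of lipolysis, the diacylglycerol lipase Dagla, 4 genes of uptake and binding, 7 genes of oxidation, and adiponectin with its 2 receptors. Messenger RNA was sequenced from MC3T3-E1 cells, a mouse pre-osteoblast line, in 3 libraries given glucocorticoid (GC) and 3 control libraries kept under normal conditions, all collected at 12 hours. Which glucocorticoid was given, and at what dose, is not stated in the labels, and every library comes from the same line. Values are FPKM, reads scaled by exon length and by sequencing depth, so levels of different genes can be set side by side.

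Cells build fatty acids in the cytosol from citrate through ATP citrate lyase, acetyl-CoA carboxylase and fatty acid synthase, then lengthen and desaturate them. Fatty acids joined to coenzyme A are esterified to glycerol, and the triglyceride formed is kept in droplets coated by perilipins until lipases release it for oxidation in mitochondria. Osteoblasts use fatty acids as a fuel, and they share a precursor with the fat cells of bone marrow. Glucocorticoids are known to act on lipid storage in fat and liver.

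The 4 members that passed the test were Acaca, Pnpla2, Dagla and Adipor2, and all were lower in GC-treated cells. Upstream sequence is shown for Acaca, Pnpla2 and Adipor2, 250 bases before the RefSeq start on GRCm38.p6 (mm10), and for Adipor1, the paired receptor that did not pass. The Acaca stretch lies on the plus strand at chr11:84195188-84195437, that of Pnpla2 on the plus strand at chr7:141454938-141455187, that of Adipor2 on the minus strand at chr6:119388735-119388984 and that of Adipor1 (the first of 2 listed) on the plus strand at chr1:134415128-134415377. Capitals mark letters found by the motif search described after them.
Acaca: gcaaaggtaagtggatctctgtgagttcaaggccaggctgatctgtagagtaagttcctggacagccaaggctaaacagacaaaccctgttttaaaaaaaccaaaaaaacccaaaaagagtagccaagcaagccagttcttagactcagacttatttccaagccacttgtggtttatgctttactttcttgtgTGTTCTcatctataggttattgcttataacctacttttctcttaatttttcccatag
Pnpla2: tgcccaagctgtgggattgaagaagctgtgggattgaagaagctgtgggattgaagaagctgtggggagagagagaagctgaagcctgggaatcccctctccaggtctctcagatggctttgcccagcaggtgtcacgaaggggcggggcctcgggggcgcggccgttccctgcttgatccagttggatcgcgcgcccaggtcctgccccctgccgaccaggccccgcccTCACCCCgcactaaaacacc
Adipor2: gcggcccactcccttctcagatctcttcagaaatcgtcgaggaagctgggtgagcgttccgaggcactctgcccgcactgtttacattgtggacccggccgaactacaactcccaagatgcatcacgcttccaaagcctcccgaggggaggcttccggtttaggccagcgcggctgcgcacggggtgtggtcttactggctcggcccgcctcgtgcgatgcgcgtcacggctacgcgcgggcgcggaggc
Adipor1: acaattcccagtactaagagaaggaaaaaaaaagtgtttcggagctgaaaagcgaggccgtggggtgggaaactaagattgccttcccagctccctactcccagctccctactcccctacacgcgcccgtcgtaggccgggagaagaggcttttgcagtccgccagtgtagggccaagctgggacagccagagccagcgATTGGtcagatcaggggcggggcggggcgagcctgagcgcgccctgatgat

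Both strands of each stretch were searched for AGAACA (core letters bound by the glucocorticoid receptor), CACGTG (the E-box), CCAAT and TCACCCC (core letters of the sterol response element). Acaca held AGAACA, read as TGTTCT on the strand shown, from 57 to 52 bases before its start. Pnpla2 held TCACCCC from 20 to 14 bases before its start, a string found in 4.31% of all 32851 promoters of this length in the RefSeq table. Adipor1 held CCAAT, read as ATTGG on the strand shown, from 51 to 47 bases before its start, against 33.8% of all promoters. Adipor2 held none of the 4 strings in this window. Of 43 promoters of 35 matched members, 4 (9.3%) held AGAACA, against 16.1% of all promoters. CACGTG was in 4 (9.3%), against 6.02%, CCAAT in 15 (34.9%), against 33.8%, and TCACCCC in 3 (6.98%), against 4.31%. These differences were not tested. AGAACA followed after 3 bases by TGTTCT, the receptor's full palindrome, was in none of the 43 and in 3 of all 32851. The RefSeq starts used for Acaca and Adipor2 lie inside the gene spans that GENCODE M21 annotates, so starts further upstream are not covered. For Acaca the GENCODE span begins at 84129672, well before the stretch shown. Whether these cells use the RefSeq start was not tested, so its AGAACA is not shown to lie in an active promoter.

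The label of the cells was checked against markers. Glucocorticoid-induced genes rose in GC: Tsc22d3, Fkbp5, Per1 and Sgk1 summed to 319 to 362 FPKM in GC and 67.6 to 73.6 FPKM in control. Of 9 osteoblast markers 7 reached 1 FPKM in at least 3 libraries, while Alpl was listed at 0 in 5 of 6 libraries. The osteoblast markers summed to 3114 to 3357 FPKM in GC and 3652 to 3846 FPKM in control. Of these, Ibsp, a bone matrix protein gene, reached 1 FPKM in GC libraries alone (1.37, 2.06 and 1.43 FPKM in GC and 0.120, 0.708 and 0.338 FPKM in control). Its adjusted p was 0.0684 by limma-trend, 0.0174 with the replicate block and 0.0484 by limma-voom. None of these is evidence of a rise, since Ibsp was tested only because its GC libraries reached the filter. Its control values rest on 4, 23 and 11 reads. Of 10 fat cell markers none reached 1 FPKM, and they summed to 1.09 to 1.77 FPKM in GC and 1.31 to 1.71 FPKM in control. Of 5 macrophage markers only Lyz2 reached 1 FPKM, at 21.1, 14.6 and 16.4 FPKM in GC and 10.9, 6.97 and 8.02 FPKM in control, and Ptprc was at most 0.00968 FPKM. The adjusted p of Lyz2 was 0.0507 by limma-trend, 0.00304 with the replicate block and 0.0286 by limma-voom. The 3 chondrocyte markers summed to 12.7 to 17.2 FPKM in GC and 20.2 to 21.4 FPKM in control, and one of them, Col2a1, fell (limma-trend adjusted p = 0.0146). The part of these lists in the results was not tested. GC replicate 2 lay apart from the other GC libraries on the first principal component (4.599, against -29.9 and -17.5), nearer control replicate 1 (7.57). On the second component it lay at -14.5, near GC replicate 3 (-18.2) and far from control replicate 1 (21.9). In RNA from a whole culture, fewer cells that use a gene and less of its RNA per cell cannot be told apart.

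The test took genes that reached 1 FPKM in 3 or more libraries, and 34 of the 44 members did. Plin4 passed that filter through control libraries alone. Its direction was thereby fixed by the filter, and its place in the counts of lower members below is no evidence of a fall. In the fit across all 11730 tested genes (limma-trend on log2(FPKM + 1), Benjamini-Hochberg adjusted p under 0.05), 4 members fell, none rose and 30 did not pass. Of all tested genes 0.853% were called lower and 1.08% higher. At an unadjusted p under 0.05 there were 10 members lower and 0 higher, against 11.5% and 7.87% of all tested genes. Fold changes were negative for 23 of the 34, against 52.3% of all tested genes. With libraries scaled to equal sums they were negative for 27, against 59.6% of all tested genes. The median over the 34 was -0.15 on the log2 scale, against -0.01 over all tested genes, or -0.21 against -0.06 with equal sums. All tested genes are not matched to the members in exon length, with which fold changes varied (given below). Its part in these differences was not tested. The 3 GC libraries lay wholly below the 3 control libraries for 11 tested members and wholly above for 1, against 14.8% and 10.8% of all tested genes.

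The 4 calls depend on single libraries, whereas the fold changes of these 4 genes stayed negative whichever library was left out. With 1 library left out, log2 fold changes ran from -0.95 to -0.72 for Acaca and from -0.58 to -0.47 for Pnpla2. They ran from -1.37 to -0.998 for Dagla and from -0.79 to -0.59 for Adipor2. No member passed without control replicate 1, 2 or 3 or without GC replicate 3, where 16 to 37 of all tested genes did. Without GC replicate 1 only Adipor2 fell, against 0.426% of all tested genes called lower. Without GC replicate 2 there were 6 members that fell and none that rose, against 6.5% and 3.96% of all tested genes called lower and higher. With the replicate number as a block 7 fell and none rose, against 5.0% and 3.96% of all tested genes called lower and higher, the added genes being Fasn, Elovl6 and Acsl3. By limma-voom on reads recovered from the FPKM 6 of 28 members fell, with Fasn and Plin4 added, and none rose, against 1.63% lower and 1.64% higher of all genes tested that way. Plin4 is among the 6 although the filter fixed its direction. With no filter on low values no member passed.

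**Figure D1:**
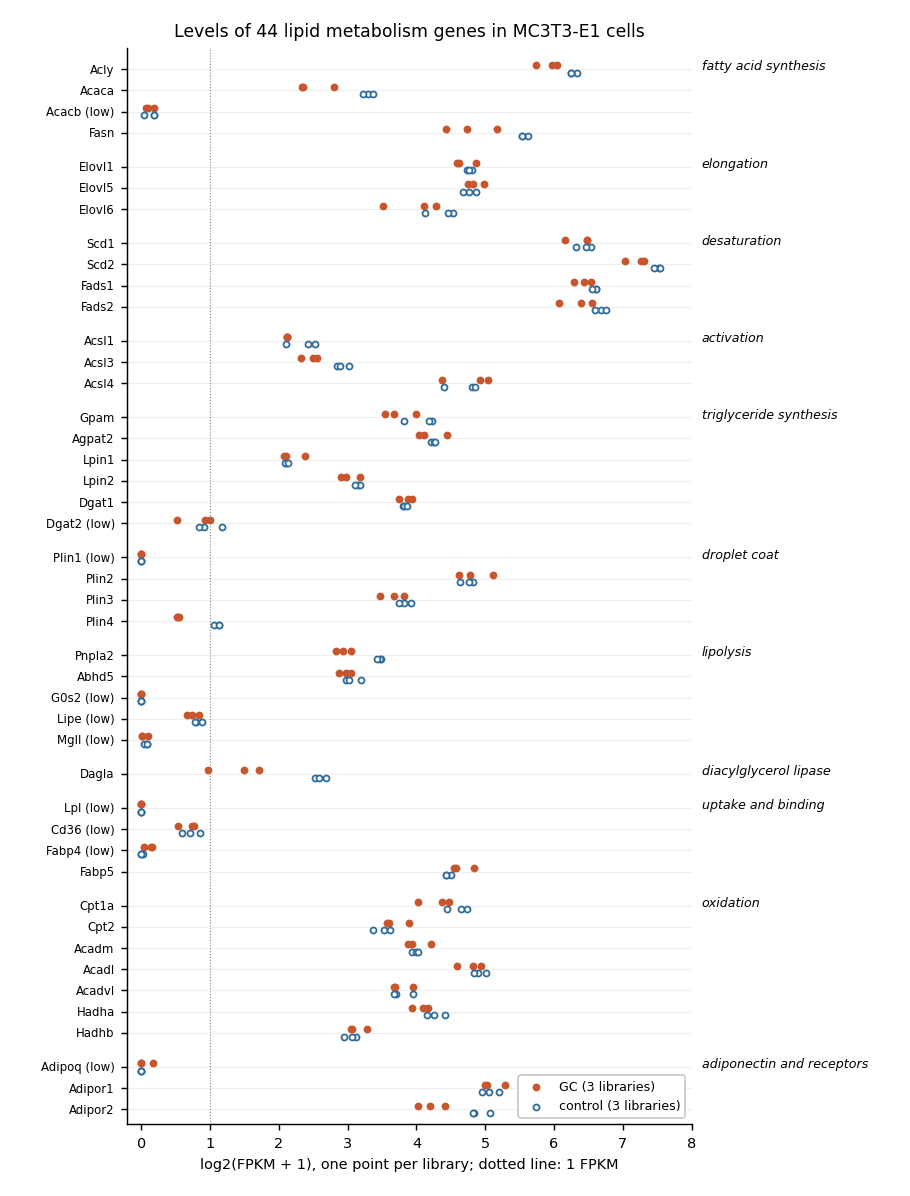
Level of each of the 44 genes in every library, as log2(FPKM + 1), with GC libraries as filled points above and control libraries as open points below on each row. Genes marked low did not reach 1 FPKM (dotted line) in at least 3 libraries. The 3 open points of Acaca, Fasn, Pnpla2, Dagla and Adipor2 lie right of the 3 filled points, and Plin1, G0s2 and Lpl sit at 0.

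Of the 4 genes of fatty acid synthesis, 1 fell and 2 had all GC libraries below control without passing. Acaca encodes acetyl-CoA carboxylase 1, which makes malonyl-CoA, the step that commits carbon to fatty acids. It had 4.13, 5.96 and 4.07 FPKM in GC and 8.85, 9.30 and 8.32 FPKM in control. The groups do not overlap, and GC replicate 2 is the GC library nearest to control. The mean fell by 46.5%, a log2 fold change of -0.80 ± 0.14 (SE, limma-trend adjusted p = 0.0374), on 1197 to 2494 reads a library. The call ended with libraries scaled to equal sums, where the log2 fold change was -0.84 (adjusted p = 0.0712).

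Fasn, fatty acid synthase, had 25.7, 35.2 and 20.5 FPKM in GC and 45.2, 48.0 and 45.5 FPKM in control. The groups do not overlap, and the GC libraries were spread more widely than the control libraries, with GC replicate 2 again the highest. Its log2 fold change was -0.78 ± 0.18 with a limma-trend adjusted p = 0.0782, or 0.0228 with the replicate block. The ratio of Acaca to Fasn within a library was 0.161, 0.169 and 0.199 in GC and 0.196, 0.194 and 0.183 in control, so the groups overlap. Acly, which supplies cytosolic acetyl-CoA, had 61.9, 65.0 and 52.6 FPKM in GC and 79.9, 75.2 and 75.2 FPKM in control, a log2 fold change of -0.36 ± 0.12 with a limma-trend adjusted p = 0.167. Acacb, the carboxylase form at the mitochondrial surface, was low in all libraries, with 0.0489 to 0.135 FPKM in GC and 0.0323 to 0.139 FPKM in control.

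Among the elongases none passed. Elovl6, which extends palmitate, had 10.4, 18.5 and 16.3 FPKM in GC and 16.4, 22.04 and 21.1 FPKM in control. In both groups replicate 1 was the lowest library. The adjusted p was 0.352 by limma-trend and 0.0488 with the replicate block. Elovl5, which extends polyunsaturated chains, averaged 28.0 ± 2.47 FPKM in GC and 26.3 ± 1.81 FPKM in control (SD, n = 3 each), and Elovl1, which extends very long saturated chains, averaged 24.9 ± 2.90 FPKM in GC and 26.2 ± 0.746 FPKM in control. The 95% intervals of their log2 fold changes ran from -0.17 to 0.34 for Elovl5 and from -0.33 to 0.18 for Elovl1.

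The desaturases were the most abundant members. Scd2, a stearoyl-CoA desaturase that puts the first double bond into saturated chains, had 153, 157 and 130 FPKM in GC and 184, 184 and 175 FPKM in control. Its lowest library stood above the highest library of each other member, and its mean above 98.0% of tested genes. The groups do not overlap, but with a log2 fold change of -0.31 ± 0.13 the limma-trend adjusted p was 0.250. Fads2, the delta-6 desaturase of polyunsaturated fatty acids, had 83.2, 92.5 and 66.0 FPKM in GC and 102, 107 and 96.02 FPKM in control (log2 fold change -0.34 ± 0.15, limma-trend adjusted p = 0.257). Fads1, the delta-5 desaturase, averaged 85.1 ± 7.62 FPKM in GC and 95.6 ± 2.31 FPKM in control without passing. Scd1 averaged 82.3 ± 10.2 FPKM in GC and 86.0 ± 6.93 FPKM in control, and its groups overlap. The ratio of Scd2 to Scd1 was 1.73, 1.79 and 1.84 in GC and 1.99, 2.11 and 2.22 in control (two-sided exact permutation test on log2 ratios, p = 0.1, the smallest that 3 against 3 allows). This ratio was chosen after its values were seen. Scd1 and Scd2 are close paralogs, so part of their reads is uncertain.

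**Figure D2:**
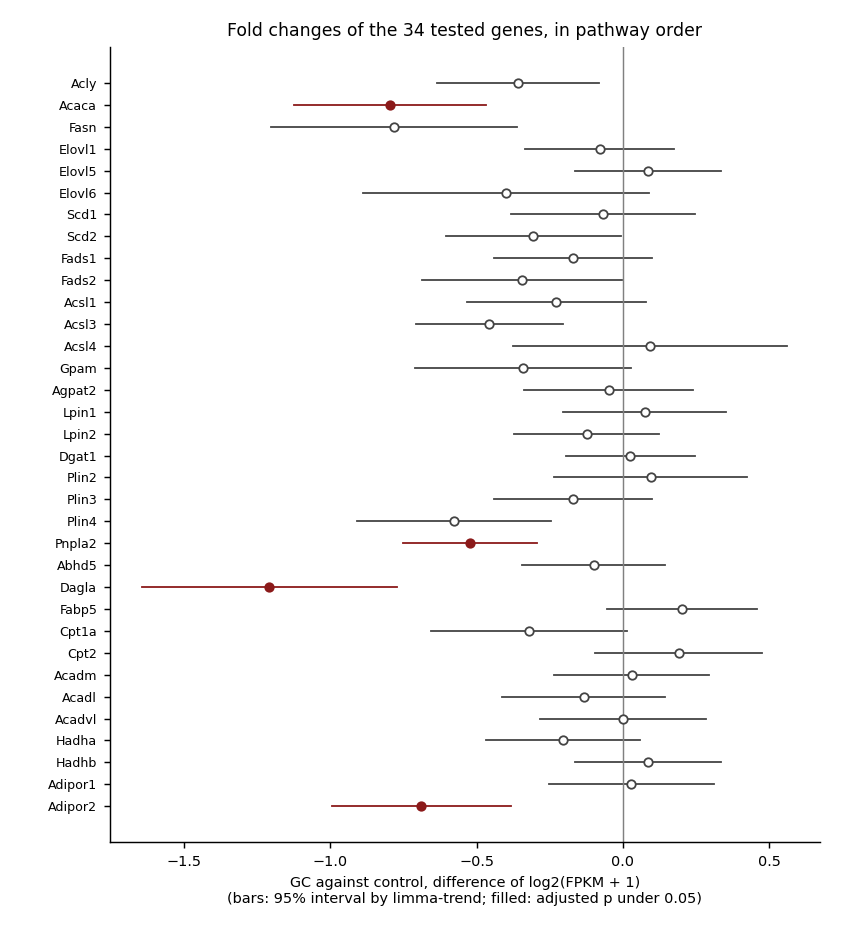
Difference of log2(FPKM + 1) between GC and control for the 34 tested genes in pathway order, with 95% intervals by limma-trend and filled points for an adjusted p under 0.05. Acaca, Pnpla2, Dagla and Adipor2 are filled and lie left of 0 and the intervals of the oxidation genes from Cpt1a to Hadhb all include 0.

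None of the acyl-CoA synthetases, which activate fatty acids, passed. Acsl3, the form tied to early lipid droplets, had 4.03, 4.66 and 4.88 FPKM in GC and 6.17, 6.44 and 7.11 FPKM in control. The groups do not overlap, with a log2 fold change of -0.46 ± 0.11 and an adjusted p of 0.0832 by limma-trend or 0.0273 with the replicate block. It shares exon sequence with Utp14b on the same strand, which leaves some of its reads uncertain. Acsl4, which prefers arachidonate, had 19.6, 29.5 and 32.0 FPKM in GC and 20.2, 27.0 and 27.8 FPKM in control, with replicate 1 the lowest in both groups. Acsl1 averaged 3.35 ± 0.0105 FPKM in GC and 4.14 ± 0.762 FPKM in control, and control replicate 3, at 3.28 FPKM, lay below the GC libraries.

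No gene of triglyceride synthesis passed. Gpam, the mitochondrial glycerol-3-phosphate acyltransferase that opens the pathway, averaged 12.4 ± 2.25 FPKM in GC and 16.02 ± 2.56 FPKM in control (limma-trend adjusted p = 0.290). Agpat2 adds the next acyl chain, the lipins Lpin1 and Lpin2 remove the phosphate, and Dgat1 joins the last chain. Log2 fold changes of these 4 lay between -0.12 and 0.07. For Dgat1, at 13.5 ± 0.973 FPKM in GC and 13.2 ± 0.338 FPKM in control, the 95% interval ran from -0.20 to 0.25. Dgat2, a second enzyme for the last step, stayed below the filter, with 0.441 to 0.997 FPKM in GC and 0.784 to 1.26 FPKM in control.

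Of the droplet coats, Plin2 and Plin3, which most cells use, overlapped between the groups. Plin2 averaged 27.8 ± 5.18 FPKM in GC and 25.8 ± 1.84 FPKM in control, and Plin3 averaged 11.7 ± 1.54 FPKM in GC and 13.2 ± 0.802 FPKM in control. Plin4, a coat of fat and muscle cells, had 0.459, 0.450 and 0.432 FPKM in GC and 1.20, 1.08 and 1.20 FPKM in control. The values were tight in both groups and rested on 43 to 111 reads a library. The pseudocount of 1 shrinks this difference to a log2 fold change of -0.58 ± 0.14 (limma-trend adjusted p = 0.0917), against -1.37 on recovered reads (limma-voom adjusted p = 0.0141). Neither p-value is evidence of a fall, since Plin4 was tested only because its control libraries reached 1 FPKM. Its exons overlap Hdgfl2 over 17 bases. Plin1, the coat of fat cell droplets, was listed at 0 in all 6 libraries, which allows up to 0.0411 FPKM at 3 reads.

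Of the 5 lipolysis genes 2 were tested and 1 fell. Pnpla2 encodes adipose triglyceride lipase, which takes the first fatty acid off triglyceride in many cell types. It had 7.27, 6.65 and 6.09 FPKM in GC and 10.2, 10.1 and 9.71 FPKM in control, so the highest GC library lay below the lowest control library. The mean fell by 33.2%, a log2 fold change of -0.52 ± 0.10 (limma-trend adjusted p = 0.0463). Abhd5, the coactivator of that lipase, averaged 6.83 ± 0.490 FPKM in GC and 7.39 ± 0.659 FPKM in control and did not pass. G0s2, which inhibits the lipase, was listed at 0 in all 6 libraries, which allows up to 0.219 FPKM. Lipe, hormone-sensitive lipase, was below the filter at 0.580 to 0.788 FPKM in GC and 0.725 to 0.843 FPKM in control. Mgll, the monoacylglycerol lipase, had 0.0114 to 0.0696 FPKM in GC and 0.0251 to 0.0626 FPKM in control, at most 6 reads.

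Dagla had the largest fold change of the 34 tested members. It encodes diacylglycerol lipase alpha, which makes the endocannabinoid 2-arachidonoylglycerol. It had 1.82, 2.28 and 0.969 FPKM in GC and 4.78, 5.45 and 5.02 FPKM in control. The mean fell by 66.7%, a log2 fold change of -1.21 ± 0.19 (limma-trend adjusted p = 0.0286), with 96 to 492 reads a library. Its paralog Daglb averaged 3.88 ± 0.433 FPKM in GC and 3.65 ± 0.324 FPKM in control. The ratio of Dagla to Daglb was 0.422, 0.590 and 0.280 in GC and 1.19, 1.61 and 1.42 in control. Dagla was thus the higher of the pair in each control library and the lower in each GC library. The two-sided exact permutation test gave p = 0.1, the smallest possible. This ratio was chosen after its values were seen and restates the fall of Dagla.

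**Figure D3:**
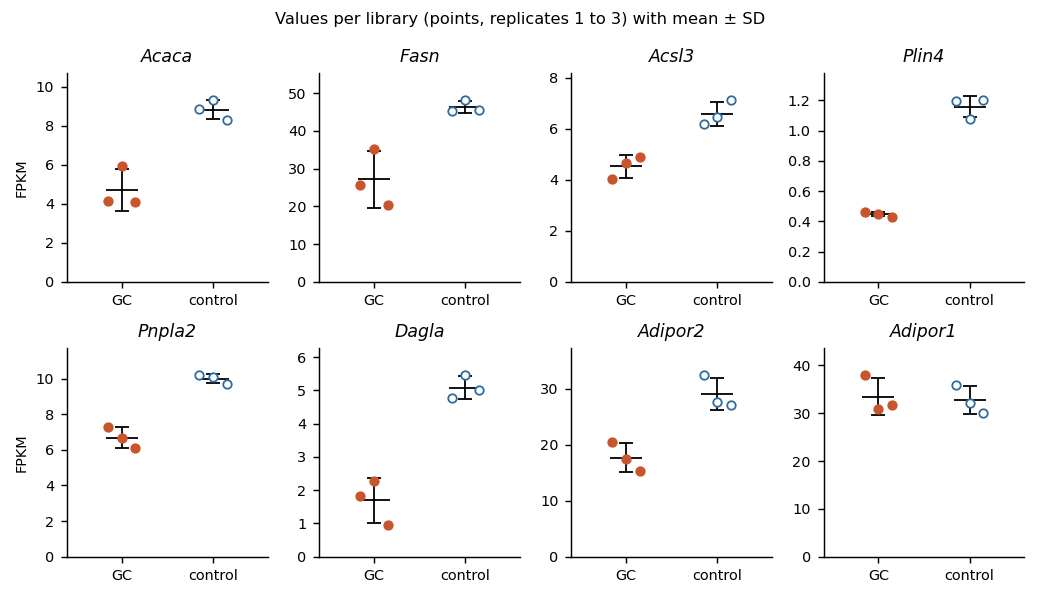
FPKM of 8 genes in each library, GC left and control right, with points for replicates 1 to 3 and bars for mean ± SD, on axes that start at 0. All 3 GC points lie below all 3 control points in each panel except that of Adipor1, where the groups overlap.

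Uptake genes were mostly low. Lpl, which frees fatty acids from lipoproteins outside the cell, was listed at 0 in all 6 libraries and so lies under 0.0182 FPKM at 3 reads. Cd36, a fatty acid translocase, had 0.443 to 0.708 FPKM in GC and 0.502 to 0.816 FPKM in control. Fabp4, the fatty acid binding protein of fat cells, had 0.0262, 0.118 and 0.103 FPKM in GC and 0.0139, 0 and 0 FPKM in control, at most 9 reads. Fabp5, the epidermal form, was the only tested member whose GC libraries all lay above control, with 27.6, 22.4 and 22.9 FPKM in GC and 21.6, 20.6 and 20.5 FPKM in control. Its log2 fold change of 0.20 ± 0.11 did not pass (limma-trend adjusted p = 0.369), and it is a close paralog of Fabp4.

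None of the 7 oxidation genes passed by limma-trend, where each unadjusted p was above 0.05, and none passed by limma-voom among the 6 tested that way. Cpt1a, the carnitine acyltransferase that controls entry into mitochondria, had 19.8, 21.2 and 15.2 FPKM in GC and 25.7, 24.0 and 20.9 FPKM in control, so the groups overlap (log2 fold change -0.32, 95% interval -0.65 to 0.01). Cpt2, its partner at the inner membrane, averaged 12.0 ± 1.62 FPKM in GC and 10.4 ± 0.972 FPKM in control. The acyl-CoA dehydrogenases Acadm, Acadl and Acadvl, for medium, long and very long chains, had log2 fold changes of 0.03, -0.13 and 0.00, with 95% intervals between -0.41 and 0.29. Hadha and Hadhb, the subunits of the trifunctional protein, had log2 fold changes of -0.20 and 0.09. The exons of Acadvl overlap those of Dvl2 over 1151 bases, which leaves some of its reads uncertain.

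Of the adiponectin receptors, which signal to fatty acid oxidation in muscle and liver, Adipor2 fell and Adipor1 did not pass. Adipor2 had 20.5, 17.4 and 15.3 FPKM in GC and 32.4, 27.6 and 27.2 FPKM in control. The mean fell by 39.1%, a log2 fold change of -0.69 ± 0.13 (limma-trend adjusted p = 0.0467). Adipor1 had 37.9, 30.8 and 31.6 FPKM in GC and 35.8, 32.2 and 30.1 FPKM in control, a log2 fold change of 0.03 with a 95% interval from -0.25 to 0.31. The ratio of Adipor2 to Adipor1 was 0.540, 0.565 and 0.483 in GC and 0.906, 0.857 and 0.904 in control. The groups are well apart, and the two-sided exact permutation test gave p = 0.1, the smallest that 3 against 3 allows, or 0.12 adjusted over the 6 ratios computed. No ratio was named in the plan, and that of the receptors restates the difference in their fold changes. The other ratios given here were chosen after their values were seen. The 6 also include Fasn to Acly and Lpin3 to Lpin1, where the groups do not overlap either. Adipoq, the gene of adiponectin itself, was listed at 0 in 5 libraries and had 0.128 FPKM, 3 reads, in GC replicate 2.

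**Figure D4:**
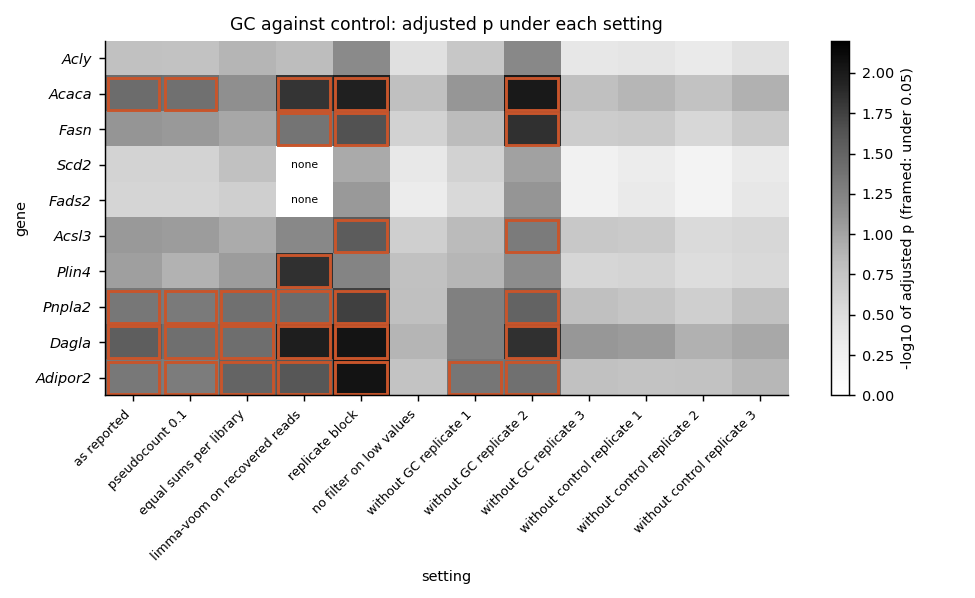
Adjusted p of the 10 members with an unadjusted p under 0.05, shaded as -log10 of the adjusted p under each setting, with frames where it is under 0.05 and none where reads could not be recovered. Adipor2 is framed in 7 columns and Acaca in 5, and no gene is framed without GC replicate 3, without any single control library or with no filter on low values.

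In mm10 coordinates of GENCODE M21, Acaca (ENSMUSG00000020532.18) lies on the plus strand of chromosome 11 from 84129672 to 84401651 and Pnpla2 (ENSMUSG00000025509.15) on the plus strand of chromosome 7 from 141455198 to 141460743. Dagla (ENSMUSG00000035735.10) lies on the minus strand of chromosome 19 from 10245265 to 10304877 and Adipor2 (ENSMUSG00000030168.13) on the minus strand of chromosome 6 from 119353150 to 119417704. None of these 4 shares exon sequence with another annotated gene, whereas 12 of the 44 members do.

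Fold changes and library levels varied with exon length. From the quintile of tested genes with the shortest exons to that with the longest, there were 0, 8, 8, 11 and 7 tested members. In the quintile of tested genes with the longest exons, 7344 bases or more, the median log2 fold change was -0.13. Relative to the mean of the 6 libraries, the median gene of that quintile stood at -0.20, 0.09 and -0.09 in GC replicates 1 to 3 and at 0.04 to 0.11 in control on the log2 scale. In the quintile with the shortest exons the median log2 fold change was 0.08, and the median gene stood at 0.20, -0.15 and 0.12 in GC replicates 1 to 3 and at -0.08 to -0.02 in control. GC replicate 2 thus lay with or beyond the control libraries in both quintiles, apart from the other GC libraries. Acaca and Fasn belong to the longest quintile, and Dagla and Adipor2 to the next, whose median was -0.06. Pnpla2 belongs to the quintile after the shortest, with a median of 0.07. The part of exon length in the fold changes of these 5 genes was not tested.

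**Figure D5:**
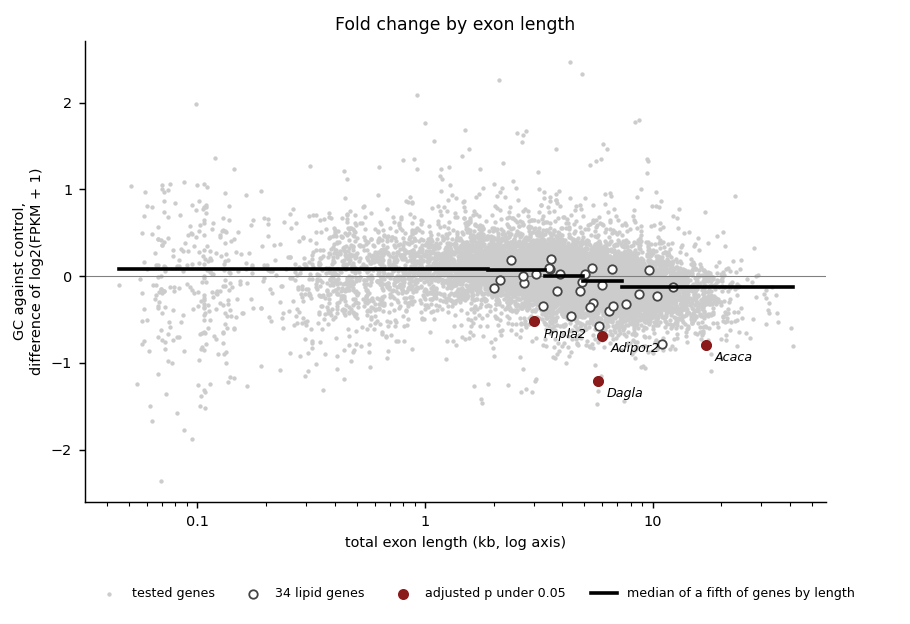
Difference of log2(FPKM + 1) between GC and control by total exon length in kb (log axis) for all tested genes with a length (grey), the 34 lipid genes (open points) and those called (filled). Black lines are medians of each quintile of genes by length, which run between 0.08 for the shortest and -0.13 for the longest. The 4 filled points were picked by the test, so their distance from the lines is no comparison by length.

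A second list of 145 genes of the same steps gives the rest of the pathway. Of its members 91 were tested, 4 rose (against 1.08% of all tested genes), 2 fell (against 0.853%) and 85 did not pass, with a median log2 fold change of -0.0049, and no member of it passed without GC replicate 3 or any one control library. With the replicate block 5 rose and 6 fell, against 3.96% and 5.0% of all tested genes called higher and lower. Without GC replicate 2 there were 5 that rose and 5 that fell, against 3.96% and 6.5% of all tested genes. In triglyceride synthesis Lpin3, another lipin, rose to 2.73 ± 0.327 FPKM in GC, against 1.22 ± 0.197 FPKM in control (SD). Its log2 fold change was 0.75 ± 0.13 (SE, limma-trend adjusted p = 0.0376, or 0.0750 with libraries scaled to equal sums). Gpd2, the mitochondrial glycerol-3-phosphate dehydrogenase, fell to 9.28 ± 0.849 FPKM in GC, against 15.3 ± 1.49 FPKM in control (limma-trend adjusted p = 0.0336). Pdk4, which turns down pyruvate oxidation, rose to 35.1 ± 2.98 FPKM in GC, against 20.5 ± 0.562 FPKM in control (adjusted p = 0.0206).

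Among relatives of the adiponectin receptors in the PAQR family, Paqr4 fell and Paqr8 rose. Paqr4 had 25.2, 22.3 and 19.7 FPKM in GC and 35.6, 34.4 and 34.2 FPKM in control (limma-trend adjusted p = 0.0401). Paqr8, known as a membrane progesterone receptor, had 19.2, 17.1 and 16.5 FPKM in GC and 9.26, 10.1 and 9.25 FPKM in control (limma-trend adjusted p = 0.0146). The log2 fold changes were -0.62 ± 0.11 for Paqr4 and 0.82 ± 0.10 for Paqr8.

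Among 18 tested regulators, only the transcription factor Cebpd passed by limma-trend, at 8.45 ± 1.003 FPKM in GC and 4.17 ± 0.651 FPKM in control (limma-trend adjusted p = 0.0271). The sterol regulators of fatty acid genes, chosen after their values were seen, did not pass by limma-trend. Srebf1, whose products drive fatty acid synthesis genes, had 10.4, 10.97 and 9.24 FPKM in GC and 12.5, 12.6 and 11.4 FPKM in control (limma-trend adjusted p = 0.260). Srebf2 had 49.1, 50.7 and 38.9 FPKM in GC and 71.8, 69.1 and 67.6 FPKM in control (adjusted p = 0.0680, 0.0210 with the replicate block and 0.0433 by limma-voom). Insig1, which holds these factors in the endoplasmic reticulum, had 46.0, 45.5 and 41.8 FPKM in GC and 60.9, 60.4 and 65.4 FPKM in control (adjusted p = 0.0638, 0.0295 with the block and 0.0451 by limma-voom). These 3 genes have their GC libraries below control, whereas the groups overlap for Scap, the escort of these factors (limma-trend adjusted p = 0.581), and for Insig2, a paralog of Insig1 (adjusted p = 0.515). Ppargc1b, a coactivator of oxidation genes, is likewise given after its values were seen. It had 0.517, 1.27 and 0.523 FPKM in GC and 2.37, 2.22 and 1.56 FPKM in control. Its log2 fold change of -0.80 ± 0.21 was the most negative of the second list, with an adjusted p of 0.0964 by limma-trend, 0.0332 with the block and 0.0435 by limma-voom.

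In 4 steps of the second list no gene passed by limma-trend, and the most abundant gene of each overlapped between the groups. Hsd17b12, an enzyme of chain elongation, averaged 77.6 ± 10.8 FPKM in GC and 65.1 ± 6.49 FPKM in control. Of the 14 tested genes of its step, 3 had all GC libraries above control, 1 had all below and 10 overlapped. Of all tested genes 10.8% lay wholly above and 14.8% wholly below. The elongation enzymes Hacd1 and Elovl7 were among those that overlapped (limma-trend adjusted p = 0.506 and 0.706). The 3 wholly above, Tecr, Hacd2 and Hacd3, are given here after their values were seen. Tecr averaged 77.2 ± 7.68 FPKM in GC and 63.2 ± 1.41 FPKM in control (limma-trend adjusted p = 0.237), and Hacd2 averaged 10.4 ± 0.974 FPKM in GC and 7.99 ± 0.865 FPKM in control (adjusted p = 0.167). Hacd3 averaged 26.7 ± 1.65 FPKM in GC and 19.9 ± 2.23 FPKM in control, with an adjusted p of 0.113 by limma-trend and 0.0294 with the replicate block. Vldlr, a lipoprotein receptor of the uptake step, is also given after its values were seen. It averaged 6.43 ± 0.304 FPKM in GC and 8.54 ± 0.197 FPKM in control. Its adjusted p was 0.0929 by limma-trend and 0.0457 with the block. Abhd12, a lysophospholipid and monoacylglycerol lipase, averaged 30.9 ± 3.58 FPKM in GC and 28.9 ± 2.14 FPKM in control. Rab18, a droplet GTPase, averaged 53.6 ± 5.02 FPKM in GC and 47.4 ± 2.60 FPKM in control, and Dbi, the acyl-CoA binding protein, averaged 35.4 ± 9.05 FPKM in GC and 33.7 ± 7.58 FPKM in control.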

How the data were processed

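The authors' deposited values for 54532 rows and 6 libraries are FPKM, a unit that the file's header does not name. It was inferred from the data: after scaling by GENCODE M21 exon length and library depth, 25588 of 26444 uniquely named rows above 0 (96.8%) gave whole reads in each library, to a tolerance of 0.001. These recovered reads summed to 15231083 to 16123918 per GC library and 14445341 to 15338639 per control library. The submitters' processing notes list HISAT2, HTSeq, DESeq2 and mm10. For versions, annotation and strand handling, the sources used here give nothing. Per the labels, RNA was extracted with TRIzol and prepared with a NEBNext Ultra kit, and per the design text the replicates are biological.

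Genes were tested with limma-trend (limma 3.58.1, R 4.3.3, robust empirical Bayes), two-sided, on log2(FPKM + 1), over the 11730 rows that reached 1 FPKM in 3 or more libraries. This scale understates changes of low genes. limma-voom covered the 28 members that passed this filter and whose reads were recovered. The fit was tested on simulated data. The members and lists were chosen with earlier results of these data known. All members are accounted for, and those with an unadjusted p under 0.05 are given by library. Of the second list the plan named the called genes, or the most abundant gene of a step without a call. Its other genes given above were added outside that rule, with their values known. For genes at 0, the limit is 3 reads, which covers counting error only.

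Deviations from the group means of same-numbered GC and control libraries correlated at 0.511, 0.248 and 0.383 across 11730 genes. Values with the replicate number as a block are therefore given where they change a call, although the labels do not say what the numbers share. The alternatives were a pseudocount of 0.1, no filter, equal library sums, the block, limma-voom and leaving out each library. A planned comparison of the receptor proteins was not analysed here.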

Additional observations from a re-analysis of the deposited data

How the results depend on the processing

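Of all tested genes 227 passed, against 361 by limma-voom, 17 with no filter on low values and 1051 with the replicate block, and between 16 and 1227 when 1 library was left out. Of the members 4 passed, against 0 with no filter and 7 with the replicate block, and between 0 and 6 when 1 library was left out. Of the second list 6 passed, against 0 with no filter and 11 with the block, and between 0 and 10 when 1 library was left out. The cause of these moves was not tested. The block changed no other call of either list than those given beside the results, and a pseudocount of 0.1 changed none. Turns of sign, here and with 1 library left out, were followed for the tested members and only part of the second list. Among the members, scaling to equal sums turned the log2 fold changes of Dgat1 (-0.027), Acadm (-0.022), Acadvl (-0.051) and Adipor1 (-0.024). Among them limma-voom turned that of Acadvl (-0.00052). Of the 91 tested genes of the second list, 47 had negative fold changes as reported and 54 with equal sums, so some turned there too. With 1 library left out, log2 fold changes that turned sign ran from -0.13 to 0.039 for Scd1, from -0.048 to 0.30 for Acsl4, from -0.17 to 0.033 for Agpat2, from -0.024 to 0.13 for Lpin1, from -0.015 to 0.0803 for Dgat1, from -0.043 to 0.21 for Plin2, from -0.072 to 0.096 for Acadm, from -0.088 to 0.087 for Acadvl, from -0.061 to 0.095 for Adipor1 and from -0.084 to 0.28 for Dbi. None of these genes passed in any of the settings run. Depth limits Mgll, Fabp4 and Adipoq, which had at most 9 reads in any library.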
